A study of Mus musculus with 2 samples.

Results

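The peaks described here were the KLF4 peaks that lay in first introns. They were taken from a list of KLF4 peaks in portal fibroblasts of mouse liver, which lie beside the bile ducts and portal vessels and can deposit scar matrix. A peak was a member when its deposited annotation began with the word for intron and placed it in intron 1 of a named transcript. Of 4216 peaks, 386 met this rule (9.16%, 95% exact interval 8.30% to 10.1%). The intervals given here come from the binomial and describe counting error alone. First-intron peaks made up 28.6% of the 1349 intronic peaks (26.2% to 31.1%). The remaining 963 intronic peaks lay in later introns. Peaks of rank 2 numbered 254 (18.8% of intronic peaks) and those of rank 3 numbered 168 (12.5%). Fewer transcripts have an intron of a higher rank, and the share of intron length at each rank was not measured.

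There were 2 libraries, 1 KLF4 chromatin immunoprecipitation (ChIP) library and 1 input library. The cells came from the livers of Clec3bCreERT2;R26tdT mice and were sorted by the red reporter that a Clec3b-driven recombinase switches on. All of them also carried Klf4 overexpressed from a lentivirus, in the ChIP and the input alike, so no library shows KLF4 at its native level. The sources used here do not give the animals' age, their number or any pooling. With 1 library a group, no value has a replicate error, and comparisons between kinds of peaks are given as values without a test. Positions are on GRCm39 unless stated.

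KLF4 is a zinc-finger transcription factor that binds GC-rich and CACCC-like DNA. The first intron of a gene is the stretch removed between its leading exon and the next one. It tends to be long, and it often holds enhancers and the starts of shorter transcripts. A peak in it belongs by position to the gene around it, called the host here. The deposited table instead assigns each peak to the gene with the nearest transcription start site (TSS), and that gene can be another one.

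The sequence under the peaks was not used here, because no genome of the same build was at hand. Sequence bore on hosts that also had a promoter peak. Of the 16 such hosts, 3 had a promoter peak that reached into the stretch from 250 bases before to 50 bases after a TSS. They were Mast4, which encodes a microtubule-associated kinase, Cwc22, which encodes a splicing factor, and the non-coding gene Gm2682. For Mast4 and Cwc22 the RefSeq promoter of that length is shown, on GRCm38.p6, read along the gene's strand. It need not be the stretch that the peak reached. Capitals mark each CACCC and, for the opposite strand, each GGGTG.
Mast4: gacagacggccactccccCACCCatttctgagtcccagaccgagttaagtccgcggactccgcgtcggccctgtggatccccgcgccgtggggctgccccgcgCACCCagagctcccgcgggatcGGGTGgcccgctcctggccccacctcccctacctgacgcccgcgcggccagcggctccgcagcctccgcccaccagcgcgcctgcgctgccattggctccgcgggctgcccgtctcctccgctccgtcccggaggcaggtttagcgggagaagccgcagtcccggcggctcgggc
Cwc22: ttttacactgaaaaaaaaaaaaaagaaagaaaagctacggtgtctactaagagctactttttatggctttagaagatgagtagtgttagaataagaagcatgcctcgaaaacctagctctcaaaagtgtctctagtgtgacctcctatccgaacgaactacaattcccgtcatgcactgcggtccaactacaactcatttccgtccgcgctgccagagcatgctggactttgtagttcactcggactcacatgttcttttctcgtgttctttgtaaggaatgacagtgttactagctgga
The Mast4 promoter, on the minus strand of chr13:103334443-103334742, held 3 matches, of which 2 were CACCC and 1 was GGGTG, and none overlapped another. The Cwc22 promoter, on the minus strand of chr2:77946307-77946606, held 0. At least 1 match was present in 57.5% of all 32851 RefSeq promoters in the table, and 3 or more in 9.35%. A match is a string of letters, and none was tested as a site. Whether these RefSeq starts are the starts that bear the peaks was not checked, since the builds differ. For Mast4 the promoter peak, at chr13:103095105-103095672, and the first-intron peak were measured to starts that lie far apart. The first-intron start is at chr13:103470700, and the RefSeq coordinates, on the other build, lie closer to it than to the promoter peak. The Mast4 sequence shown may therefore belong to the start without the promoter peak.

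Most of the peaks were shallow. Fold enrichment, the authors' ratio of the ChIP pileup to its background, each raised by 1, had a median of 4.59 in first introns (quartiles 4.54 and 4.87, range 2.61 to 11.8). It was 4.59 as well in later introns, in promoters and in distal intergenic peaks. The fragments over each summit were recovered from fold and p. In first introns 154 peaks had 5 and 151 had 6, together 79.0% (74.6% to 83.0%), against 74.4% in later introns (71.5% to 77.1%). A single value of fold, 4.59 from 5 fragments, was shared by 87 members, and 57 more had 4.54 from 6 fragments. A median width of 200.5 bp (quartiles 149 and 289.25 bp) was measured in first introns and 191 bp in later introns. The highest q among the members was 0.0484.

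**Figure D1:**
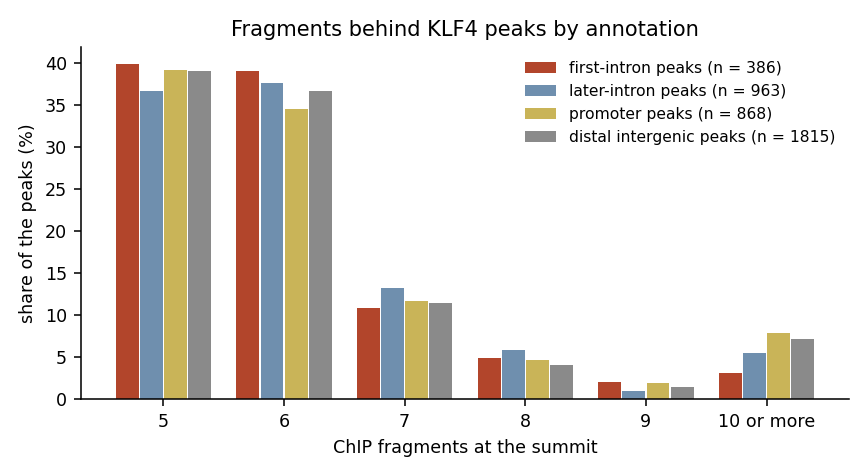
Share of peaks (%) by the number of ChIP fragments at the summit in first introns (n = 386), later introns (n = 963), promoters (n = 868) and distal intergenic stretches (n = 1815). In each kind of peak most had 5 or 6 fragments, and 10 or more were seen at 3.11% of first-intron peaks against 5.50% of later-intron peaks.

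Deep peaks were few in each kind of region. In first introns 12 had 10 or more fragments (3.11%, 1.62% to 5.37%), against 53 in later introns (5.50%, 4.15% to 7.14%). Promoters had 68 (7.83%) and distal intergenic stretches 130 (7.16%). High input background moves with these numbers. It was over 10 times the genome-wide level of 0.307 fragments at 4 first-intron peaks (1.04%) and at 39 later-intron peaks (4.05%). All 4 of those first-intron peaks had 10 or more fragments. The part of background in the difference was not tested. A q under 0.01 was reached by 60 members (15.5%, 12.1% to 19.6%) and by 151 later-intron peaks (15.7%, 13.4% to 18.1%).

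The strongest member by fold lay in the first intron of Frs2, an adaptor that links fibroblast growth factor receptors to their kinase cascade. It covered chr10:116958779-116958898, had 18 ChIP fragments at 2.00 times the genome-wide background, and lay 7853 bp downstream of a Frs2 TSS. Its fold was 11.8. The next member, with a fold of 7.78 and 11 fragments, lay in the long non-coding gene Gm19276, 3361 bp from its TSS. Another non-coding host, Gm29683, had a fold of 6.81.

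Nrg1 followed at 6.72, with 13 fragments and a q of 4.4e-06. It encodes neuregulin, an EGF-family ligand of ErbB receptors. Ido2, an enzyme of tryptophan breakdown, had a fold of 6.52 from 10 fragments. Bank1, a scaffold protein of B-cell receptor signalling, had 6.39 from 9 fragments. Ptpro, a receptor tyrosine phosphatase, had 6.39 from 8 fragments. Cdh10, a cadherin, had 6.26 from 9 fragments. The last 2 of the 10 strongest hosts, with folds of 6.49 and 6.41, have no symbol in the deposited table. Among the 10, the background ran from 1.04 to 3.53 times the genome-wide one.

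The 4 peaks in high background were set apart from these 10. They lay in the non-coding genes Gm48903 (fold 3.51, 79 fragments) and Gm40770 (2.92, 51 fragments), in Cwc22 (2.61, 26 fragments) and in a gene without a symbol (4.93, 36 fragments). Their backgrounds ranged from 21.2 to 70.9 times the genome-wide level. A q under 1e-05 was reached by 6 members, and 3 of these 6 were among the 4. The other 3 were the peaks in Frs2, Gm19276 and Nrg1.

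The members lay in 368 host genes. The deposited table pairs an ID with a symbol for a gene that is nearest to some peak, and so 259 hosts had a symbol and 109 did not. Counts of named hosts are therefore lower bounds. Of the 273 peaks with a named host, 227 lay in protein-coding genes and 44 in long non-coding RNA genes (16.1%, 12.0% to 21.0%). In later introns non-coding hosts made up 54 of 612 such peaks (8.82%, 6.70% to 11.4%). A host was named at 70.7% of first-intron and 63.6% of later-intron peaks, so both shares may differ from those over all hosts. The named transcript of the 44 had a median of 2 introns, which leaves few later introns to hold a peak. The transcript named in the annotation had a median of 6 introns in first-intron peaks (quartiles 3 and 12) and 11 in later-intron peaks. A later-intron peak needs a transcript with at least 2 introns, so this direction follows at least in part from the rule.

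The named transcript had 1 intron at 45 members, so for these the first intron was the sole one. Among them 13 had a protein-coding host, 15 a long non-coding host, 1 a processed pseudogene and 16 a host without a symbol. The coding ones included Chd7, a chromatin remodeller (fold 4.54), Pak1, a kinase downstream of Rac and Cdc42 (5.16), Osr1, a zinc-finger factor (4.54), and Col4a3, a basement membrane collagen chain (4.94). They were named after their values were seen. Some of these genes are known for having many exons, so intron 1 here is that of a short transcript. Whether the same stretch is a later intron of a longer transcript was not checked.

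Most hosts had 1 first-intron peak. This was so for 356 of 368, while 12 hosts (3.26%) had several and held 30 peaks. In later introns 115 of 804 hosts (14.3%) had several, where a gene has more than 1 intron to hold them. A peak in a later intron was found as well in 53 of the 368 hosts (14.4%). Among all 21900 protein-coding genes, 2.74% had a peak in any intron, counted over named hosts. The 2.74% is an unlike measure and a lower bound, because the 368 include non-coding hosts and hosts without a symbol. A long gene offers more room for peaks of both kinds, gene length was not matched, and co-occurrence was not tested. A promoter peak was found in 16 of the 368 (4.35%), against 36 of the 804 hosts of later-intron peaks (4.48%).

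Nrg1 had the most, with 6. Counted from the start of its longest deposited transcript, which spanned 1046 kb of chromosome 8, they lay at 129, 208, 383, 465, 676 and 915 kb. Their folds in that order were 5.26, 4.88, 4.32, 5.08, 4.89 and 6.72, from 8, 7, 8, 7, 6 and 13 fragments. The deepest was thus the one farthest from that start. It lay 18.3 kb upstream of the TSS of a shorter Nrg1 transcript, and its annotation named a different transcript from the one named at the other 5. The background at these 6 peaks ran from 1.40 to 3.53 times the genome-wide one.

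**Figure D2:**
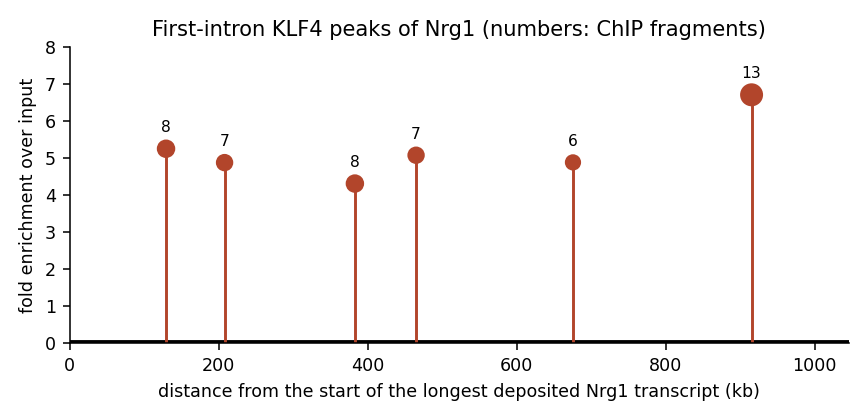
First-intron KLF4 peaks of Nrg1 by distance from the start of its longest deposited transcript (kb, x axis), with fold enrichment over input as height and the number of ChIP fragments above each point. The 6 peaks were spread from 129 to 915 kb, with folds of 4.32 to 6.72 and the highest at 915 kb.

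Of the other hosts with several first-intron peaks, Zfp804b, a zinc-finger gene, had 3, with folds of 4.51, 4.46 and 5.16. A gene without a symbol on chromosome 8 also had 3. The remaining 9 had 2 each. Ghr, the growth hormone receptor, had folds of 4.68 and 5.03 at 59.6 and 49.6 kb from the first deposited start. Fto, an RNA demethylase, had 5.11 and 5.16 at 25.03 and 37.7 kb. Ppp1r12b, a targeting subunit of myosin phosphatase, had 4.65 and 4.67 at 52.9 and 33.0 kb. Filip1l, a filamin-interacting protein, had 4.80 and 4.45 at 45.5 and 139 kb. No peak of these 4 genes had more than 7 fragments.

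The 16 hosts with a promoter peak as well included coding and non-coding genes. Cyth3, an exchange factor for ARF GTPases, had a first-intron peak with a fold of 5.48 (8 fragments) and a promoter peak with 4.67 (6 fragments). In Mast4 the first-intron peak (4.54, 6 fragments) lay at chr13:103465815-103466025 and the promoter peak (4.32, 8 fragments) at chr13:103095105-103095672, before the start of a different Mast4 transcript. In Cwc22 the first-intron fold was 2.61, and the promoter folds were 2.99 and 2.68, all in high background. Hycc1, a subunit of a lipid kinase complex, had 5.28 in the intron (10 fragments) and 5.14 at the promoter (6 fragments). In the non-coding Gm48903 the first-intron peak had 79 fragments and its 3 promoter peaks had 53, 40 and 47, all in high background.

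The nearest gene was the host at 251 of 386 first-intron peaks (65.0%, 60.0% to 69.8%), against 520 of 963 later-intron peaks (54.0%, 50.8% to 57.2%). At 81 members (21.0%) the nearest TSS was that of the very transcript named in the annotation. At 170 members (44.0%) it belonged to another transcript of the host. At the remaining 135 (35.0%) it belonged to another gene. In later introns these shares were 7.37%, 46.6% and 46.0%. A first intron lies closer to the start of its own transcript than any later intron of that transcript. The higher host and own-transcript shares in first introns may therefore follow at least in part from the membership rule. The part of the rule in these differences was not tested.

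Up to 100 kb, agreement was higher close to a TSS than farther out. It held for 53 of 69 members at 3 to 5 kb (76.8%), 73 of 97 at 5 to 10 kb (75.3%), 78 of 132 at 10 to 30 kb (59.1%) and 38 of 76 at 30 to 100 kb. Beyond 100 kb it held for 9 of 12, and 4 of these 12 were in Nrg1. Later-intron peaks had 71.3%, 61.6%, 53.0%, 44.5% and 45.9% in the same bands. The membership rule may raise the first-intron shares here as well. By depth, agreement held for 63.9% of members with 5 or 6 fragments (195 of 305, 58.3% to 69.3%) and 69.1% of those with 7 or more (56 of 81, 57.9% to 78.9%).

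**Figure D3:**
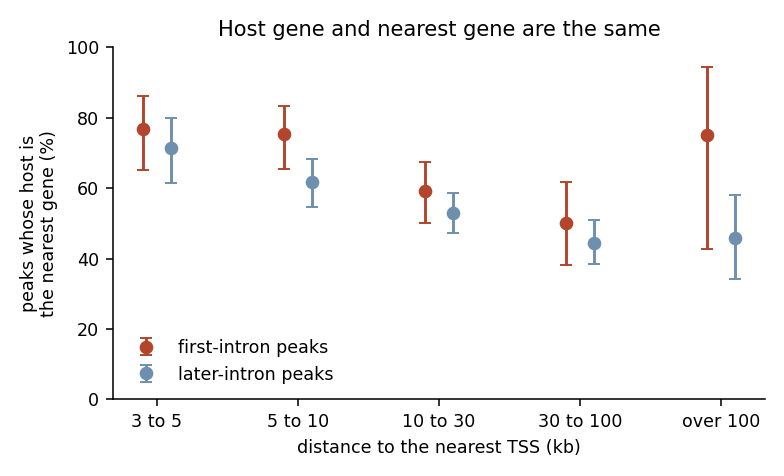
Share of peaks (%) whose host gene is also the gene with the nearest TSS, by distance to that TSS (kb), for first-intron and later-intron peaks. Points are shares and bars are 95% exact binomial intervals (counting error). The share in first introns was 76.8% at 3 to 5 kb and 59.1% at 10 to 30 kb, and the band over 100 kb held 12 first-intron peaks.

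Where host and nearest gene differed, the nearest gene was protein-coding at 25 of 135 members (18.5%, 12.4% to 26.1%). Processed pseudogenes took 35, long non-coding RNAs 33, unclassified transcripts 19, small nuclear RNAs 10, microRNAs 6 and small nucleolar RNAs 5. The host had a symbol at 22 of the 135. Tnik, a kinase of the Wnt and JNK pathways, had the highest fold of the 22 (5.30), and its peak was assigned to Gm37537, 4646 bp away. The Hycc1 peak (5.28) was assigned to the pseudogene Gm6745.

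The first-intron peak of Naaladl2 (5.19) was assigned to the pseudogene Gm42774, whose TSS lay 94857 bp away. That of Nxn, the redox protein nucleoredoxin (5.12), was assigned to Mrm3, a mitochondrial RNA methyltransferase gene 63.7 kb away. A Zfp804b peak (5.16) was assigned to Tex47 at 14.4 kb. The Nrg1 peak at 676 kb was assigned to the small nuclear RNA gene Gm22140 at 22.0 kb. The Gm2682 peak (4.89) was assigned to another non-coding gene, Gm41331, at 22.3 kb. In the opposite direction, Neurod1, Olig1 and Meox2, which encode transcription factors, and Stab2, a scavenger receptor of liver endothelium, were each nearest gene to a member annotated to an intron of another gene. The peak nearest to Meox2 also lay within the deposited Meox2 transcript, as was so for the nearest gene's transcript at 6 of the 135 members. These 4 were named after their values were seen, and their hosts have no symbol in the table.

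The distance from a member to the nearest TSS had a median of 12.5 kb (quartiles 5.96 and 28.3 kb), against 17.2 kb in later introns (8.21 and 41.0 kb). The annotation sets the lower end, because a peak within 3 kb of any TSS is called promoter first, and 0 of 386 members were that close. At 166 members (43.0%, 38.01% to 48.1%) the TSS lay within 10 kb, against 312 later-intron peaks (32.4%, 29.4% to 35.5%). A first intron precedes every later intron of its transcript, so the shorter distances may follow at least in part from the membership rule. The 5 closest named hosts were Rnf19a, Scaf11, Zfc3h1, Fam47e and Ehhadh, at 3037 to 3131 bp, with folds of 4.53 to 4.84. The 5 farthest were peaks in Lrrc4c at 236 kb, in Gpc6 at 220 kb, in Nrg1 at 208 kb (2 peaks, measured to different Nrg1 starts), and in Prkd1 at 130 kb. The Gpc6 peak, in a gene of a cell-surface heparan sulfate proteoglycan, had a fold of 5.66.

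**Figure D4:**
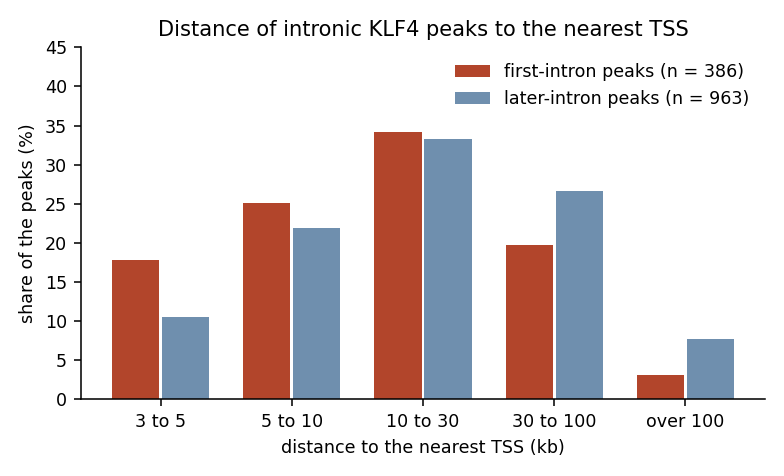
Share of peaks (%) by distance to the nearest TSS (kb) in first introns (n = 386) and later introns (n = 963). First introns had 17.9% of their peaks at 3 to 5 kb and 3.11% beyond 100 kb, against 10.5% and 7.68% in later introns.

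The nearest TSS lay downstream of the peak at 114 members (29.5%, 25.03% to 34.4%) and at 400 later-intron peaks (41.5%, 38.4% to 44.7%). Where the nearest gene was the host, this was so at 56 of 251 members (22.3%). At those 56 another transcript of the host starts beyond the peak. In 53 of the 56 the host was protein-coding. They included Nrg1 at 18.3, 126 and 208 kb, Bank1 at 17.3 kb and Ghr at 50.3 kb. The median distance of the 56 was 13.7 kb, against 9.66 kb for the 195 members with a host TSS upstream. The lower share of downstream starts in first than in later introns may likewise follow at least in part from the membership rule.

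For the 81 members whose own transcript had the nearest TSS, position along the transcript could be read. The median was 10.6 kb from the TSS in transcripts with a median length of 52.3 kb. As a share of transcript length the median was 20.5% (quartiles 9.82% and 45.2%), against 44.2% (29.1% and 62.0%) for 71 such later-intron peaks. On the plus strand the median share was 32.2% (n = 36) and on the minus strand 18.7% (n = 45), against 49.0% (n = 26) and 37.0% (n = 45) in later introns. The transcripts behind these shares differed in length by strand. Their median was 47.3 kb on plus and 88.6 kb on minus, against 27.6 and 50.6 kb in later introns. A difference by strand was not tested. The direction of the difference between first and later introns follows from the choice of intron 1, which precedes every later intron of its transcript. Since these 81 had to be nearest to their own start, they are not a sample of all members.

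**Figure D5:**
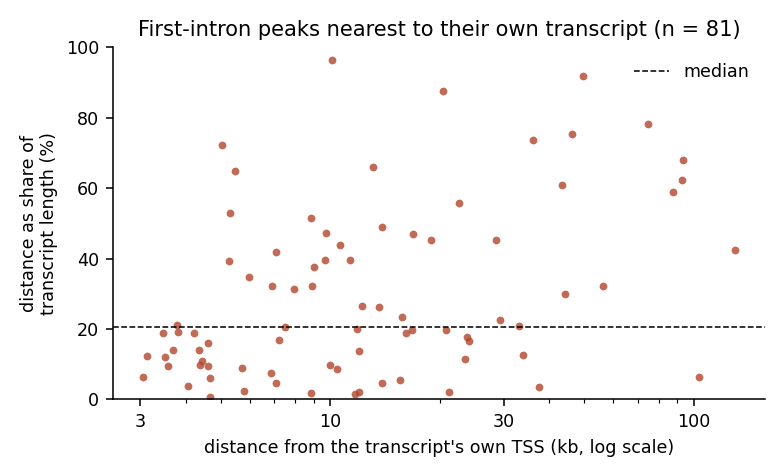
First-intron peaks whose own transcript has the nearest TSS (n = 81), by distance from that TSS (kb, log scale) and by the same distance as a share of transcript length (%). Points are peaks and the dashed line is the median share, 20.5%.

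The series is about portal fibroblasts that turn into myofibroblasts, and gene lists were set beside the hosts for that reason. Of 490 genes in 19 lists, at least 17 (3.47%) were hosts of a first-intron peak, and 13 lists had 0. Over 21900 protein-coding genes of the gene table the share was 0.945% (207 genes). These counts are descriptions without a test, and shares of long and short genes are not comparable, since a long intron offers more room for a peak. The lists were written with earlier results of these data known. Of the 17 genes, 8 come from a list of neuronal adhesion and other very long genes.

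The lists closest to fibrosis are given first. Every list in this paragraph had 0 or 1 host, with an exact interval that includes 0.945%. Lists this small cannot tell such shares apart. Myofibroblast and contractile genes had 0 of 20 (upper limit of the exact interval 16.8%) and matrix and crosslinking genes 0 of 30 (11.6%). In TGF-β and BMP signalling 1 of 34 was a host: Smurf1, a ubiquitin ligase for Smad proteins, had a peak with a fold of 4.54 from 6 fragments, 6487 bp upstream of a Smurf1 TSS. Receptor kinases and their adaptors had 1 of 32, Frs2. Lists of Wnt, Hedgehog and Notch genes (0 of 34), integrin and adhesion genes (0 of 30), Hippo genes (0 of 18) and KLF and SP factors (0 of 21) had none. Housekeeping genes had 0 of 14. For Klf4, Postn and Clec3b the number of first-intron peaks was 0.

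Of 98 marker entries in 6 lists of cell types, 1 was a host, a share near the 0.945% of all protein-coding genes. Portal fibroblast markers had 0 of 21 and hepatic stellate cell markers 0 of 20. Hepatocyte (0 of 15), endothelial (0 of 14) and macrophage or leukocyte markers (0 of 14) had none, and cholangiocyte markers had 1 of 14. That was Anxa4, a calcium-dependent phospholipid-binding protein, with a fold of 4.32. A peak does not show whether a gene is expressed, and at this depth an absent peak does not show that KLF4 was absent.

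The list of neuronal adhesion and other very long genes had 8 of 62 (12.9%, 5.74% to 23.9%). Its hosts were Nrg1, Naaladl2 (fold 5.19), the netrin-G ligand gene Lrrc4c (5.01), the growth factor homolog Fgf14 (4.59), the adhesion gene Opcml (4.54), the Robo ligand gene Slit3 (4.54), Csmd1 (4.54) and the cadherin gene Cdh18 (4.49). Apart from Nrg1, none of these peaks had more than 7 fragments. Any intronic peak was found in 27 of the 62 (43.5%), against 2.74% of all protein-coding genes. Because the list was written with earlier results of these data known, its higher shares are no independent result. Gene length was not matched.

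Calcium and potassium channel genes had 3 of 35 (8.57%, 1.80% to 23.1%). They were Cacna1c, the pore subunit of an L-type calcium channel (5.16), Cacnb4, an accessory subunit (4.80), and the cation channel gene Trpm3 (4.51). Cyclic nucleotide and protein kinase C or D signalling genes had 3 of 28 (10.7%, 2.27% to 28.2%). Of these, Prkg1, the kinase through which cGMP relaxes smooth muscle, had a peak of 551 bp with a fold of 4.59. The nearest TSS, 47.5 kb away, was that of a Prkg1 transcript 22.9 kb long, so the peak lay beyond that transcript's end. Pde10a, a phosphodiesterase, had 4.59, and Prkd1, protein kinase D1, had 4.48. Each of these 3 rested on 5 fragments.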

How the data were processed

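Chromatin of sorted, Klf4-transduced portal fibroblasts was sequenced as 1 KLF4 ChIP library and 1 input library, grouped by the sample titles. The submitters' processing notes list the build GRCm39, ChIPseeker 1.44.0, MACS2 2.2.7.1, Bowtie2 2.4.2, fastp 0.24.0, deepTools 3.4.1 and bcl2fastq 2.17. The settings and read totals are not in the labels. The authors deposited 1 annotated peak list. Its fold enrichment is the authors' linear ratio. The p-value and q-value were deposited by the authors both directly and on the −log10 scale.

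First-intron members, hosts and intron ranks were read from the annotation text, and distance and nearest gene were used as deposited. Fragments and background were recovered from fold and p, and a whole number fitted all 4216 peaks within 0.001 of −log10 p. On simulated peaks 500 of 500 whole heights were recovered, and 1 of 500 heights that were not whole fitted. A background above 10 times that of the genome was called high. Shares have exact (Clopper-Pearson) 95% intervals. No test between kinds of peaks was run. List genes were matched by symbol to a gene table of GRCm38.p6, used for names, and 180 of 259 named hosts matched its RefSeq promoters.

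The members and lists were chosen with earlier results of these data known. Named genes followed a rule: the 10 strongest hosts outside high background, the 5 hosts with the most peaks (9 tied at 2 peaks, of which 5 are described), all list members with a peak (up to 6 a list, exceeded for the long-gene list), the 5 nearest and 5 farthest, the 8 strongest with another gene nearest, and Klf4, Postn and Clec3b. The 5 described among the ties were not taken in order of fold. For example, Lhfpl3 (highest fold 5.07) was left out and Ghr (5.03) was described. Genes outside the rule were named after their values were seen. They are the hosts with a promoter peak, those in high background, those of single-intron transcripts, and Neurod1, Olig1, Meox2 and Stab2. One of those 8, 1 gene list and some positions are not reported here. Alternatives were other q limits, nuclear chromosomes, peaks outside high background, transcripts with several introns, matching by transcript, coding hosts and any intron. The work used scipy 1.17.1, pandas 2.3.3, matplotlib 3.10.9, numpy 2.4.6 and Python 3.11.15.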

Additional observations from a re-analysis of the deposited data

How the results depend on the processing

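With nuclear chromosomes alone or without high background, the number of members (386 and 382), of hosts (368 and 364), their share of intronic peaks, host agreement, median distance and median fold stayed within 1.5 times or within their intervals. A q under 0.01 left 60 peaks in 59 hosts, with a median fold of 5.35, and a q under 1e-05 left 6 peaks in 6 hosts, with a median fold of 5.82. The limit on q selects strong peaks, so the lower counts and higher folds follow from it. Those 6, of which 3 lay in high background, had a share of intronic peaks of 35.3%, host agreement of 83.3% and a median distance of 6665 bp. Without single-intron transcripts the share of intronic peaks was 26.2%. Agreement was 21.0% when the same transcript was asked for. It was 91.2% for protein-coding hosts, a value the construction raises, because a host gets its biotype by being nearest to some peak. Any intronic peak gave 64 list genes in place of 17. Most members rest on 5 or 6 fragments, and 1 library a group leaves no replicate check of any peak. No paired analysis was possible because each group had 1 library.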

Other observations

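Chromosome 8 held 38 of the 386 first-intron peaks (9.84%, exact 95% interval 7.06% to 13.3%), against 305 of all 4216 peaks (7.23%) and 60 of 963 later-intron peaks (6.23%). That interval includes the 7.23% of all peaks. The 6 Nrg1 peaks, the 3 of a gene without a symbol and the 2 of Fto are among the 38. Peaks of the same gene are not independent counts, so the interval may be too narrow. On chromosome 1 the order was the other way, with 7.51% of first-intron and 10.4% of later-intron peaks. These 2 chromosomes were picked without a stated rule, and shares on the others are not given here. In D630045J12Rik the 2 first-intron peaks were neighbours, at chr6:38201007-38201166 and chr6:38201289-38201578, and the deposited distances to the nearest TSS were -29650 and 29312 bp, to starts on opposite sides.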
